A study of Mus musculus with 12 samples.

Results

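The genes described here are 9 genes of the B lymphocyte surface and of B cell identity, Ms4a1, Cd79a, Cd79b, Pax5, Pou2af1, Cr2, Blk, Cd22 and Fcer2a. They were chosen by symbol, as the rows of the gene count table whose Ensembl identifiers map to these names, and all 9 were found among the 55401 genes of the table. The choice was made with earlier results of these tumors in view, in which these genes stood apart in the Control group. In the values below, that rests on Control replicate 1. Their levels are therefore given as a description without p-values, and the later counts of calls and of unadjusted p-values are descriptions as well.

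TC2Ras cells, a mouse prostate cancer line carrying oncogenic Ras, were implanted under the skin of both flanks of mice, and tumors were taken at 21 days. All mice had first been kept on low-arsenic chow and purified water. Control tumors grew from TC2Ras cells alone in mice drinking water with 0 ppb inorganic arsenic (iAs), and As300 tumors (A300 in the labels) from the same cells in mice given 300 ppb iAs. ASC tumors grew from TC2Ras cells mixed with 1% ASC-GFP cells, which are GFP-marked stromal cells isolated from mouse fat, at 0 ppb iAs, and ASC_As300 tumors (ASC300 in the labels) from the same mixture at 300 ppb. Each group had 3 tumor samples, each of them the pooled left and right flank tumors of 1 mouse, so n = 3 mice per group. The strain, sex and age of the host mice were not given in the sources used here. The labels name adipose-derived stromal cells as the cell type of every sample, although whole tumor tissue was sequenced. Summed levels of 10 stromal genes were between 3773 and 6346 CPM (library-scaled counts) in the 12 tumors, with no step between tumors with and without ASC-GFP cells. Col1a1, Col1a2 and Dcn made up most of this sum, at 1420, 1290 and 693 of 3819 CPM in Control replicate 1. The sum therefore says little about the other stromal genes or about a 1% share of ASC-GFP cells.

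A B lymphocyte reads antigen through a membrane immunoglobulin that is bound to the signalling pair CD79a and CD79b. The complement receptor CD21, made from Cr2, lowers the threshold of that signal, whereas CD22 dampens it. PAX5 fixes the identity of the lineage and is switched off when a B cell becomes a plasma cell, together with most of the surface genes listed here. In tumors, B cells occur singly or in lymphoid aggregates beside T cells, and B cells are also the main cell of the follicles of lymph nodes and spleen.

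Start-site sequences were available for 6 of the 9 genes in the RefSeq promoter table (GRCm38.p6), and Ms4a1, Cd79b and Blk were not analysed here. In the 250 bases before each start, both strands were searched for 4 short motifs named after factors of the lineage. The octamer ATGCAAAT, which POU2AF1 and its partners are known to bind, was in none of the 6, against 1.81% of all 27025 genes. An E box of the type bound by E2A, CAGGTG, was in 4 of the 6 (Cd79a, Cr2, Cd22 and Fcer2a), against 19.4% of all genes. A gene counted if any of its start sites had a match. Fcer2a had 3 start sites, and its E boxes were at start site 2 alone, which lies inside the gene. A PU.1-type motif, AGGAAGT, was in the window of Cd79a alone, against 8.8% of all genes, and an EBF1-type motif, CCCNNGGG, in that of Cd22 alone, against 13.4%. The RefSeq starts used for Cd79a and Cd22 lie inside the GENCODE bounds of these genes given below. The PU.1-type match of Cd79a and the E box of Cd22 lay in bases that an annotated exon covers. None of the matches overlapped another. These are letter matches in a fixed window and not measured binding. The stretches before 3 of the start sites that held a match, cut to the bases that no annotated exon covers, are shown 5′ to 3′ in the direction of the gene, with the E box (Cd79a, Cr2) or the EBF1-type motif (Cd22) in capitals.
Cd79a, chr7:24897247-24897380, plus strand: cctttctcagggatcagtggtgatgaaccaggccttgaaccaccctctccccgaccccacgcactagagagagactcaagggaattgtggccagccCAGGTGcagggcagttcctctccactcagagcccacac
Cr2, chr1:195176720-195176969, minus strand: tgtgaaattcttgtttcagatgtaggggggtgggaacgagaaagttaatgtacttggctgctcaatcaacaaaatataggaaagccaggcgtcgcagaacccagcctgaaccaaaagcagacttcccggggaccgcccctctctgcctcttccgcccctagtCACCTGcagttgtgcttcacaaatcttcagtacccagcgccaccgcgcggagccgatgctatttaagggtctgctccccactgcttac
Cd22, chr7:30879029-30879176, minus strand: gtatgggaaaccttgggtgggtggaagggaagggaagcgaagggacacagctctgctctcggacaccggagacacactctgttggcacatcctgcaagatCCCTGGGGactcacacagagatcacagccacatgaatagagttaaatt

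The 12 tumors had 39157647 to 55168642 counts each, and CPM values here are scaled by the effective library size. Control replicate 1 stood apart from the other 11 tumors on the first principal component, which held 17.27% of the variance. It had the highest level of all 9 genes. Of the 20818 genes that passed the filter on low counts, 11.3% had their highest level in this tumor, and 0.331% (69 genes) were there at least 4-fold higher than in every other tumor. All 9 genes were among those 69. Because the 9 were chosen for this pattern, that count is a description and carries no test. In a bulk sample, fewer cells of a type and less RNA per cell cannot be told apart.

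**Figure D1:**
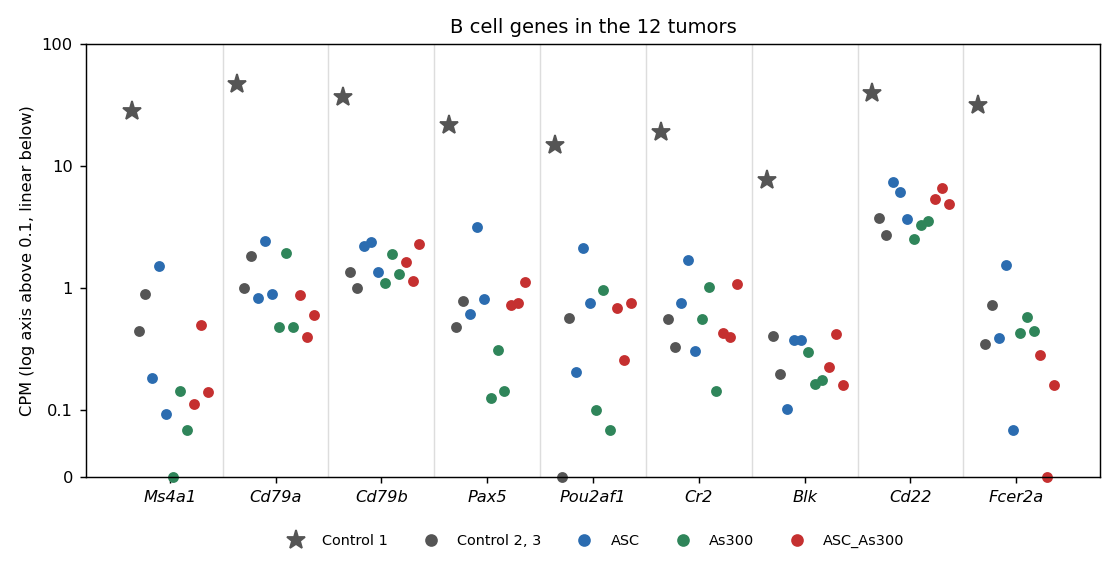
Level of each of the 9 genes in each of the 12 tumors, in CPM (y axis, logarithmic above 0.1 and linear below it), with the star marking Control replicate 1 and dots colored by group. The star lies above every dot for all 9 genes, from 7.73 CPM for Blk to 47.0 CPM for Cd79a, and the dots of the 4 groups overlap for most genes.

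Cd79a and Cd79b encode the signalling chains of the B cell receptor. Cd79a (ENSMUSG00000003379, chr7:24897381-24902197 on GRCm38) was at 47.0 CPM in Control replicate 1 and at 0.998 and 1.82 CPM in the other Control tumors. It was at 0.830, 2.44 and 0.886 CPM in the ASC tumors, 0.475, 1.94 and 0.477 CPM in the As300 tumors and 0.875, 0.395 and 0.593 CPM in the ASC_As300 tumors. The ASC_As300 tumors were all below the 3 Control tumors, while the ASC and As300 values ran across those of Control replicates 2 and 3. Cd79b (ENSMUSG00000040592, chr11:106311341-106314762) was at 36.5 CPM in Control replicate 1, against 1.34 and 0.998 CPM in replicates 2 and 3. It was at 2.21, 2.36 and 1.35 CPM in the ASC tumors, 1.1, 1.90 and 1.29 CPM in the As300 tumors and 1.62, 1.15 and 2.27 CPM in the ASC_As300 tumors. Apart from Control replicate 1, Cd79b was among the steadier of the 9 genes, within 44 to 115 counts in all 11 tumors. The level in Control replicate 1 was 53.7 times the median of the other 11 tumors for Cd79a and 27.0 times for Cd79b.

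Ms4a1 encodes CD20, a membrane protein of mature B cells that plasma cells lack. Ms4a1 (ENSMUSG00000024673, chr19:11249675-11266241) was at 28.0 CPM in Control replicate 1, or 1353 counts, and at 0.441 and 0.890 CPM in the other Control tumors. It was at 0.182, 1.5 and 0.0932 CPM in the ASC tumors, 0, 0.143 and 0.0706 CPM in the As300 tumors and 0.112, 0.494 and 0.138 CPM in the ASC_As300 tumors. Here the As300 tumors, with 0, 7 and 4 counts, lay below all 3 Control tumors. The single value in Control replicate 1 was 195 times the median of the other 11, the widest gap among the 9 genes.

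Cr2 encodes complement receptors CD21 and CD35, and Fcer2a encodes CD23, the low-affinity IgE receptor, both typical of mature follicular or marginal zone B cells. Cr2 (ENSMUSG00000026616, chr1:195136811-195176716) was at 19.1 CPM in Control replicate 1 and at 0.556 and 0.325 CPM in replicates 2 and 3. It was at 0.749, 1.69 and 0.303 CPM in the ASC tumors, 0.550, 1.02 and 0.141 CPM in the As300 tumors and 0.428, 0.395 and 1.07 CPM in the ASC_As300 tumors. The values of all 4 groups overlapped. Fcer2a (ENSMUSG00000005540, chr8:3681737-3694175) was at 31.5 CPM in Control replicate 1 and at 0.345 and 0.716 CPM in the others. It was at 0.385, 1.53 and 0.0699 CPM in the ASC tumors, 0.425, 0.572 and 0.441 CPM in the As300 tumors and 0.279, 0 and 0.158 CPM in the ASC_As300 tumors. The ASC_As300 tumors, with 15, 0 and 8 counts, lay below the 3 Control tumors and below the 3 As300 tumors. Control replicate 1 held 34.8 times the median of the other tumors for Cr2 and 81.8 times for Fcer2a.

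Cd22 encodes an inhibitory receptor that binds sialic acid and recruits the phosphatase SHP-1. Cd22 (ENSMUSG00000030577, chr7:30865402-30880342) was at 39.8 CPM in Control replicate 1 and at 3.70 and 2.69 CPM in replicates 2 and 3. It was at 7.35, 6.06 and 3.68 CPM in the ASC tumors, 2.53, 3.25 and 3.51 CPM in the As300 tumors and 5.40, 6.64 and 4.87 CPM in the ASC_As300 tumors. Cd22 was therefore the member with the smallest gap, 10.8 times the median of the other 11 tumors, and the one best detected elsewhere, with 101 to 363 counts in those 11. Leaving Control replicate 1 aside, the 6 tumors with ASC-GFP cells had 3.68 to 7.35 CPM of Cd22 and the 5 tumors without them 2.53 to 3.70 CPM, which overlapped in ASC replicate 3 and Control replicate 2 alone. The other 8 genes summed showed no such step, at 3.85 to 15.2 CPM with ASC-GFP cells and 2.81 to 7.01 CPM without. Taken singly, Pax5 was at 0.607 to 3.16 CPM with them and 0.125 to 0.781 CPM without, where Control replicate 3 alone was above 0.480 CPM. This split of the tumors was looked at after the values were seen.

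Blk encodes a Src-family kinase of the B lineage that acts below the receptor. Blk (ENSMUSG00000014453, chr14:63372836-63417037) was at 7.73 CPM in Control replicate 1 and at 0.403 and 0.195 CPM in the others. It was at 0.101, 0.375 and 0.373 CPM in the ASC tumors, 0.300, 0.164 and 0.177 CPM in the As300 tumors and 0.223, 0.415 and 0.158 CPM in the ASC_As300 tumors. With 5 to 21 counts in those 11 tumors, Blk was the most weakly counted of the 9 by its highest value outside Control replicate 1, and no difference among those 11 was detectable at this depth.

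Pax5 and Pou2af1 encode nuclear proteins, PAX5 a transcription factor of the lineage and POU2AF1 a coactivator for the octamer-binding factors that is needed for germinal centres and kept in plasma cells. Pax5 (ENSMUSG00000014030, chr4:44524757-44710487) was at 21.5 CPM in Control replicate 1 and at 0.480 and 0.781 CPM in replicates 2 and 3. It was at 0.607, 3.16 and 0.816 CPM in the ASC tumors, 0.125, 0.307 and 0.141 CPM in the As300 tumors and 0.726, 0.751 and 1.11 CPM in the ASC_As300 tumors. All 3 As300 tumors lay below the tumors of every other group for Pax5, with 5, 15 and 8 counts against 25 or more. Pou2af1 (ENSMUSG00000032053, chr9:51213708-51240080) was at 14.9 CPM in Control replicate 1, at 0 in replicate 2 and at 0.564 CPM in replicate 3. It was at 0.202, 2.12 and 0.746 CPM in the ASC tumors, 0.1, 0.961 and 0.0706 CPM in the As300 tumors and 0.689, 0.257 and 0.752 CPM in the ASC_As300 tumors. No group was set apart for Pou2af1 once Control replicate 1 was left out. The gap between Control replicate 1 and the median of the other tumors was 29.6-fold for Pax5 and 26.5-fold for Pou2af1.

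Summed over the 9 genes, Control replicate 1 had 246 CPM, and Control replicates 2 and 3 had 8.27 and 8.98 CPM. The ASC tumors had 12.6, 21.2 and 8.32 CPM, the As300 tumors 5.60, 10.3 and 6.32 CPM, and the ASC_As300 tumors 10.3, 10.5 and 11.1 CPM. The Control mean was 87.8 ± 137 CPM (SD, n = 3), an SD larger than the mean, and 8.63 ± 0.504 CPM (SD, n = 2) without replicate 1. The means of the other groups were 14.1 ± 6.57 CPM for ASC, 7.40 ± 2.51 CPM for As300 and 10.7 ± 0.410 CPM for ASC_As300 (SD, n = 3 each). Without Control replicate 1, the Control tumors thus lay inside the range of the other groups. ASC replicate 2 came next after Control replicate 1, second for 7 of the 9 genes, the exceptions being Cd22 (ASC replicate 1) and Blk (ASC_As300 replicate 2). As300 replicate 1 had the lowest level of 3 genes.

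The make-up of this sum differed between Control replicate 1 and the rest. Cd22 was 16.2% of the sum in Control replicate 1 and 28.5% to 63.3% in the other 11 tumors, with a median of 44.8%, so that all 11 had a larger Cd22 share. Ms4a1 was 11.4% of the sum there against 0% to 9.90% elsewhere, and Fcer2a 12.8% against 0% to 7.97%, with none of the 11 tumors above it for either gene. Cd79b held a like share in both, 14.8% against 10.9% to 20.5%. The higher level in Control replicate 1 was thus not a uniform multiple of the level in the other tumors.

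**Figure D2:**
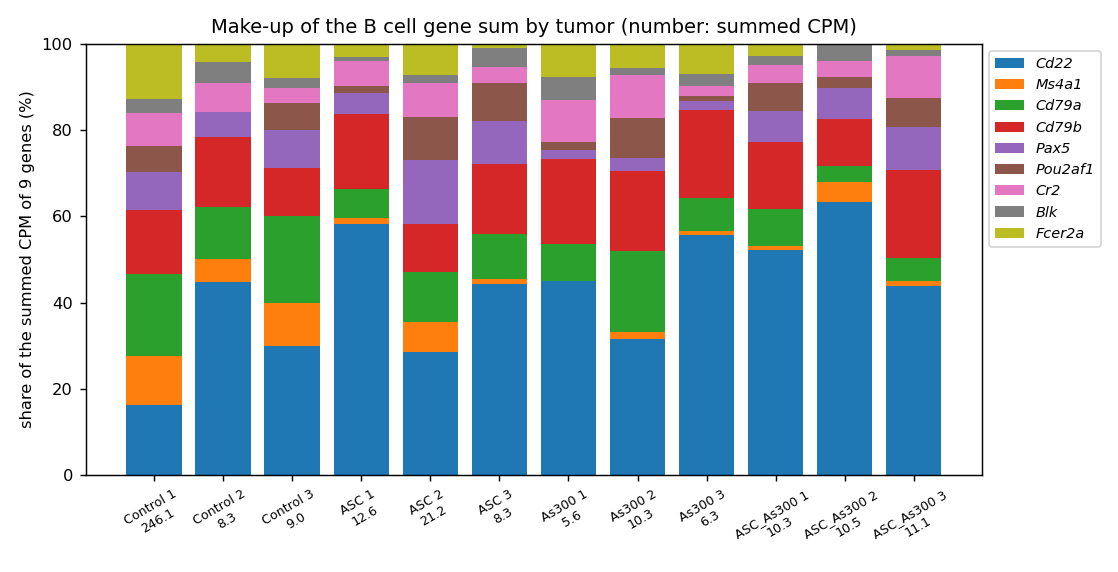
Share of each of the 9 genes in their summed CPM (y axis, percent) in each tumor (x axis, with the summed CPM below its name). Cd22 takes 16.2% of the bar of Control replicate 1 and at least 28.5% of every other bar.

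Levels of different genes were compared per kilobase of annotated exon, as CPM per kb. In Control replicate 1 the order from high to low was Cd79a at 32.3 CPM per kb, Cd79b at 25.5, Fcer2a at 10.2, Cd22 at 7.90, Pou2af1 at 5.85, Ms4a1 at 4.52, Blk at 2.86, Pax5 at 2.43 and Cr2 at 2.36 CPM per kb. Over the other 11 tumors the order of the medians was Cd79b at 0.945 CPM per kb, Cd22 at 0.734, Cd79a at 0.600, Pou2af1 at 0.221, Fcer2a at 0.124, Blk at 0.0828, Pax5 at 0.0820, Cr2 at 0.0678 and Ms4a1 at 0.0231 CPM per kb. Neighbors in this second order overlapped in range for all 8 neighboring pairs, and Cd79a above Pou2af1 was the only step held in all 11 tumors. Cd79a, Ms4a1 and Fcer2a were placed higher in the order of Control replicate 1 than in that of the other tumors, and the other 6 genes lower.

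Whether the 9 genes moved together depended on the same tumor. Across the 12 tumors the 36 pairwise Pearson correlations of log2 CPM ran from 0.62 to 0.94, with a median of 0.81. Across the 11 tumors without Control replicate 1 they ran from -0.39 to 0.76, with a median of 0.33, and 8 of the 36 were below 0. Blk was the least connected, with a median of -0.06 with the other 8 genes, and Pax5 the most, with a median of 0.52. The tumors share a table and a scaling, and many of these values rest on few counts, so the correlations are given as descriptions.

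To ask whether ASC-GFP cells, iAs or both changed the 9 genes, each group was compared with Control by the quasi-likelihood test of edgeR, fitted across all 20818 genes. A gene counted as called at a Benjamini-Hochberg adjusted p below 0.05 and a fold change of at least 1.5. Against Control, all 9 genes had a negative log2 fold change in each of the 3 groups, with medians of -2.87 for ASC, -3.76 for As300 and -3.37 for ASC_As300, where the median over all genes was within 0.03 of 0. None was called in any of the 3 comparisons by edgeR, against 0.721%, 1.06% and 0.807% of all genes tested. At an unadjusted p below 0.05, 6 of the 9 genes were lower for ASC, 9 for As300 and 7 for ASC_As300, against 6.87%, 13% and 6.5% of all genes lower. DESeq2 returned a p for 2 of the 9 (Pou2af1 and Blk), because it set the other 7 aside as holding a count outlier, and it called 0, 1 and 1 of the 9 lower, the single gene being Blk, which had no adjusted p in ASC, where 0.228%, 0.95% and 0.216% of all genes were called lower by DESeq2. The rule that chose the genes used these comparisons, so nothing is read from the counts of calls.

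Among the largest fitted differences were those of Ms4a1 and Pax5 in As300, with log2 fold changes of -6.99 (SE 1.76) and -5.29 (SE 1.33), and of Fcer2a in ASC_As300, at -6.18 (SE 1.69). Cd22 had the smallest in every group, at -1.44 (SE 0.76) in ASC, -2.31 (SE 0.78) in As300 and -1.45 (SE 0.76) in ASC_As300. Cd79a was at -3.59 (SE 1.20) in ASC, -4.10 (SE 1.23) in As300 and -4.73 (SE 1.27) in ASC_As300. The 3 comparisons share their Control tumors, so these values are not independent of each other.

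Without Control replicate 1 these differences shrank or changed sign. The median log2 fold change of the 9 genes became 0.76 in ASC, with 6 genes higher and 3 lower, -0.12 in As300, with 3 higher and 6 lower, and 0.45 in ASC_As300, with 5 higher and 4 lower. None was called by edgeR in these fits, against 1.01%, 0% and 0.937% of all genes. At an unadjusted p below 0.05 there was 1 gene in ASC (Cd22, higher), 2 in As300 (Ms4a1 and Pax5, lower) and 1 in ASC_As300 (Cd22, higher), against 14.8%, 20.8% and 14% of all genes in either direction. Of the genes whose direction stayed negative, Ms4a1 in As300 was at -3.13 (SE 1.27) and Pax5 in As300 at -1.69 (SE 0.71). Cd22 turned from lower to higher in both groups with ASC-GFP cells, at 0.84 (SE 0.31) in ASC and 0.82 (SE 0.31) in ASC_As300, and was at -0.03 (SE 0.30) in As300. Cd79a in ASC went to -0.02 (SE 0.70), and Blk in ASC to -0.08 (SE 0.84).

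**Figure D3:**
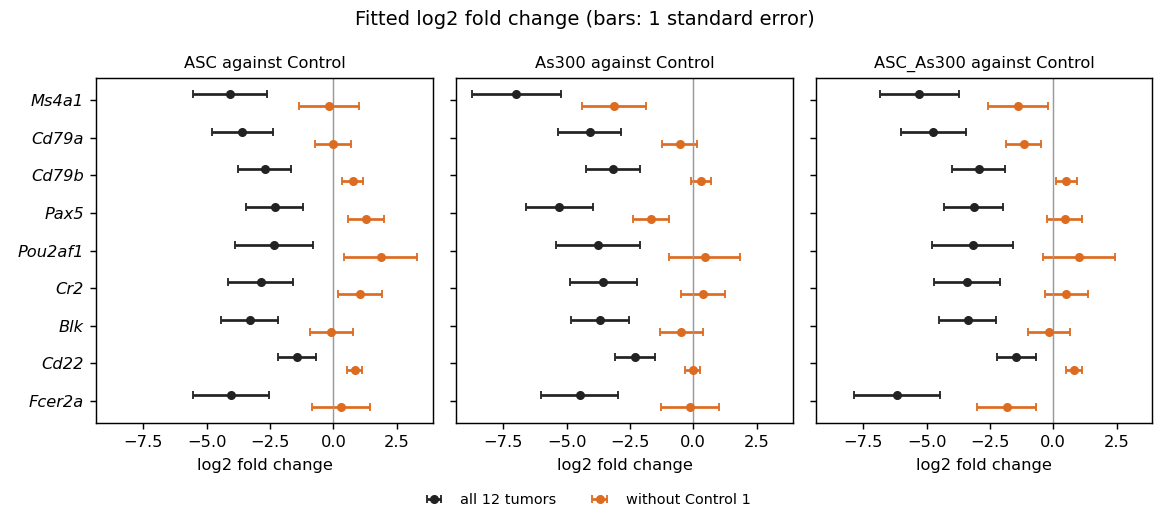
Log2 fold change against Control fitted by edgeR (x axis) for each of the 9 genes in the ASC, As300 and ASC_As300 tumors, with bars of 1 standard error. Black points from all 12 tumors lie below 0 for all 9 genes, and orange points without Control replicate 1 lie on both sides of 0, with medians of 0.76, -0.12 and 0.45.

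Counted by overlap of the raw levels, no member separated the ASC from the Control tumors, 2 were lower in all As300 than in all Control tumors (Ms4a1 and Pax5) and 2 were lower in all ASC_As300 than in all Control tumors (Cd79a and Fcer2a). Over all genes tested, 9.01%, 15.4% and 12.2% were lower without overlap in these comparisons. Nothing is read from these counts either, since the rule used the same comparisons.

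The comparisons between the treated groups do not use the Control levels. For iAs in the presence of ASC-GFP cells (ASC_As300 against ASC), all 9 genes had a negative log2 fold change, with a median of -0.82, but none was called by edgeR or DESeq2 and none had an unadjusted p below 0.05, where 0% of all genes were called by edgeR, 0.0326% by DESeq2, and 3.21% had an unadjusted p below 0.05. The highest ASC tumor decided this direction, since the median was 0.18 without ASC replicate 2. For ASC-GFP cells in the presence of iAs (ASC_As300 against As300), 7 genes were higher and 2 lower, with a median of 0.32. None of these was called by edgeR or DESeq2 and none had an unadjusted p below 0.05, against 0.855% of all genes called by edgeR, 1.18% by DESeq2 and 9.98% at that unadjusted p. Pax5 and Cd22 were higher in all 3 ASC_As300 than in all 3 As300 tumors, and Fcer2a lower, where 11.3% and 8.37% of all genes were higher and lower without overlap. Their fold changes were 2.15 (SE 1.24) for Pax5, 0.86 (SE 0.76) for Cd22 and -1.69 (SE 1.57) for Fcer2a on the log2 scale. With Control replicate 1 out of the fit, their standard errors were smaller and they were 2.14 (SE 0.66), 0.85 (SE 0.27) and -1.71 (SE 1.08), and Pax5 and Cd22 had an unadjusted p below 0.05, against 10.6% of all genes, with none called, against 1.28%.

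The interaction of ASC and iAs, which asks whether the difference made by iAs was the same with and without ASC-GFP cells, was positive for all 9 genes, with a median log2 value of 2.96. None was called by edgeR, as was the case for 0% of all genes, DESeq2 called none of the 2 it tested, against 0.515% of all genes, and 3 genes (Ms4a1, Pax5 and Blk) had an unadjusted p below 0.05, against 7.08% of all genes in that direction. The Control levels enter this value with a positive sign, and the genes were chosen with those levels in view. Nothing is therefore read from its sign or from these counts. Without Control replicate 1 the median was -0.54, with 4 genes positive and 5 negative. In that fit edgeR called none of the 9, as it called 0% of all genes, and none had an unadjusted p below 0.05, against 13.3% of all genes.

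Other lists of genes were described beside the 9, from those of other B cell functions to those of other cell types. Of the 69 genes at least 4-fold higher in Control replicate 1 than in every other tumor, 9 were the genes described here, 10 of 17 were other genes of the B cell surface, 8 of 16 were from the list of plasma cell and immunoglobulin genes (7 immunoglobulin genes and Jchain) and 4 of 7 were genes of lymphoid tissue stroma and chemokines. Among B lineage transcription factors there were 3 of 13 (Spib, Bach2 and Bcl11a) and among B cell receptor signalling genes 1 of 14 (Bank1). There were none of 4 B cell precursor genes, of 6 germinal centre genes, of 17 T cell genes, of 7 plasmacytoid dendritic cell genes, of 8 adipocyte genes, of 7 fast muscle genes and of 10 stromal genes, and 1 of 8 epithelial genes (Krt18). The lists of precursors, germinal centre, immunoglobulin and lymphoid tissue genes hold 9, 8, 17 and 11 genes, of which the numbers given passed the filter. The filter asks for counts in several tumors, so it can drop a gene high in Control replicate 1 alone. Of the dropped genes, Glycam1 was at 3.93 CPM there against at most 0.154 CPM elsewhere, and Ccl19 at 3.14 against 0.188 CPM. Vpreb3 was at 1.07 against 0.161 CPM, Madcam1 at 1.05 against 0.0791 CPM and Chst4 at 0.599 against 0 CPM. Rag1, Rag2, Vpreb2, Igll1, Rgs13, Mef2b and Tnfrsf17 were dropped too and were not highest there.

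**Figure D4:**
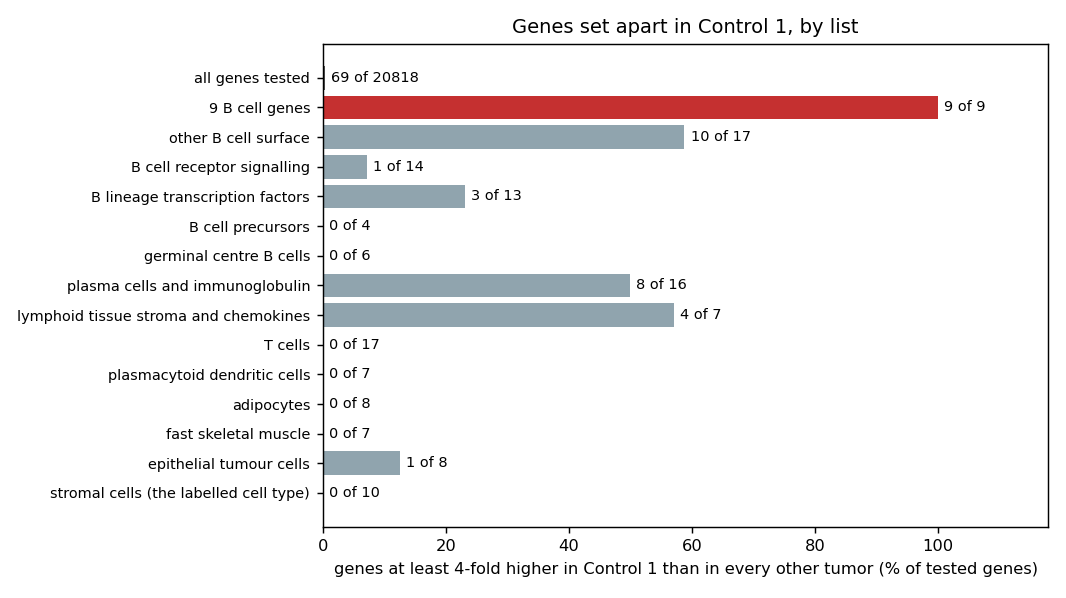
Percent of the tested genes of each list (x axis) that were at least 4-fold higher in Control replicate 1 than in every other tumor, with the count beside each bar. The 9 B cell genes were chosen for this pattern and stand at 9 of 9, beside 69 of 20818 for all genes.

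Among other B cell surface genes, the follicle-homing receptor gene Cxcr5 was at 9.09 CPM in Control replicate 1 and at most 0.846 CPM elsewhere. Of the 17 genes of that list, 13 were highest in Control replicate 1, and Cd40, Cd72, Cd83 and Cd180 were not. Ighd, the IgD heavy chain of naive mature B cells, was at 78.7 CPM against at most 5.33 CPM, and Ighg1, the heavy chain of the switched isotype IgG1, at 28.9 CPM against at most 0.256 CPM. Of the other switched heavy chains, Ighg2b was at 31.8 CPM against at most 7.80 CPM and Ighg3 at 2.25 against at most 1.42 CPM. Ighg2c and Igha were not highest in Control replicate 1. Ighg2c was at 24.0 CPM there and 24.4 CPM in ASC_As300 replicate 3, and Igha at 2.34 CPM there and 3.40 CPM in ASC replicate 2. Ccl21a and Cxcl13, chemokines of the T cell zone and of the follicle of lymphoid organs, were at 33.5 CPM against at most 1.36 CPM and at 13.3 CPM against at most 1.98 CPM. Jchain, which links IgA and IgM into multimers and is made by plasma cells, was at 17.9 CPM against at most 2.41 CPM. The plasma cell gene Mzb1 was also highest there, at 3.16 CPM against at most 0.831 CPM. Derl3 was at 0.703 CPM there and at most 0.831 CPM elsewhere. Tnfrsf17, which did not pass the filter, had 0 counts there and at most 12 counts elsewhere. Xbp1, Prdm1 and Sdc1 went the other way, with Control replicate 1 the lowest of the 12 tumors. Xbp1 was at 82.9 CPM (86.0 or more elsewhere), Prdm1 at 3.84 CPM (6.28 or more) and Sdc1 at 70.8 CPM (85.0 or more). These 3 genes are also expressed outside plasma cells. The genes of T cells were highest in Control replicate 1 for 11 of 17, at a summed 148 CPM. This was close to the 82.3 to 117 CPM of the tumors with ASC-GFP cells, but well above the 31.7 and 27.0 CPM of Control replicates 2 and 3 and the 24.8 to 34.4 CPM of the As300 tumors, so T cell genes were high together with the 9 genes in this tumor. The summed level of the 8 epithelial genes was also highest in this tumor, at 363 CPM against 27.3 to 121 CPM, of which Krt8 alone gave 337 CPM. Only Krt8, Krt18 and Epcam of the 8 had their highest level there. The fast muscle genes were lowest there, at 1.34 CPM against 4.50 to 1639 CPM, and the 8 adipocyte genes were second highest there, at 397 CPM, below the 810 CPM of ASC replicate 2 and above the 42.2 to 251 CPM of the other 10 tumors. Whether lymphoid tissue was collected with this tumor was not tested, and every comparison with Control that includes it carries that limit. The part of the other cell types in the levels of the 9 genes was not tested.

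Few genes of the 13 other lists were called. Against Control with all tumors in the fit, edgeR called 1, 2 and 3 of their 134 tested genes in ASC, As300 and ASC_As300, or 0.746%, 1.49% and 2.24%, against 0.721%, 1.06% and 0.807% of all genes. They included Bst2 in ASC (log2 fold change 1.39, adjusted p = 0.00249 by edgeR), Rasgrp3 in As300 (-0.86, adjusted p = 0.0450 by edgeR), and Spi1, Bst2 and Krt8 in ASC_As300 (0.60, 1.21 and -2.51, adjusted p = 0.0495, 0.00628 and 0.0309 by edgeR). Rasgrp3 acts below the B cell receptor, Spi1 encodes the myeloid and B cell factor PU.1, Bst2 is an interferon-induced gene, and Krt8 is a keratin. Of the 17 other B cell surface genes, edgeR called 0 for ASC, As300 and ASC_As300 alike. At an unadjusted p below 0.05 by edgeR, 2, 10 and 10 were lower, against 6.87%, 13% and 6.5% of all genes, and 3, 0 and 3 were higher, against 8.55%, 11.2% and 8.7%. DESeq2 gave a p to 11 of them and called 0, 2 and 1 lower, against 0.228%, 0.95% and 0.216% of all genes. It called 2, 0 and 1 higher, against 1.1%, 1.47% and 0.938%. Btla in As300 was at a log2 fold change of -4.05 (adjusted p = 0.0518 by edgeR).

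The T cell genes, too, depended on Control replicate 1. With all tumors in the fit, edgeR called 0 of the 17 in ASC, 0 in ASC_As300 and 1, lower, in As300. Over all genes it called 0.721%, 0.807% and 1.06% in that order. The median log2 fold changes of the T cell genes were 0.52, 0.37 and -1.20. At an unadjusted p below 0.05 by edgeR, 1 was higher in ASC, 1 higher in ASC_As300 and 7 lower in As300. Of all genes, 8.55%, 8.7% and 13% were so in those directions. DESeq2 called 0, 0 and 5 lower, against 0.228%, 0.216% and 0.95% of all genes, and none higher. Without Control replicate 1, 10 of 17 T cell genes were called higher in ASC, 8 in ASC_As300 and none in As300 against Control by edgeR. Over all genes, 0.979%, 0.919% and 0% were called higher in that order. In As300, 1 T cell gene was higher and 1 lower at an unadjusted p below 0.05, against 10.8% and 9.98% of all genes. Cd8a, a chain of the CD8 coreceptor, was higher by log2 2.82 in ASC (adjusted p = 0.00655 by edgeR) and by 2.87 in ASC_As300 (adjusted p = 0.00541 by edgeR). None of the 9 B cell genes was called in the same fits. The difference between the lists was not tested. Summed T cell levels were 82.3 to 117 CPM in the 6 tumors with ASC-GFP cells and 24.8 to 34.4 CPM in the 5 without, leaving out Control replicate 1, whereas the summed 9 B cell genes were at 8.32 to 21.2 CPM and 5.60 to 10.3 CPM. The ratio of summed B cell to summed T cell genes was 1.66 in Control replicate 1 and 0.0747 to 0.415 in the other 11 tumors. The B cell surface gene Cd72, which myeloid cells also express, was called higher in these fits, by log2 1.32 in ASC (adjusted p = 0.000707 by edgeR) and by 1.44 in ASC_As300 (adjusted p = 0.000399 by edgeR).

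**Figure D5:**
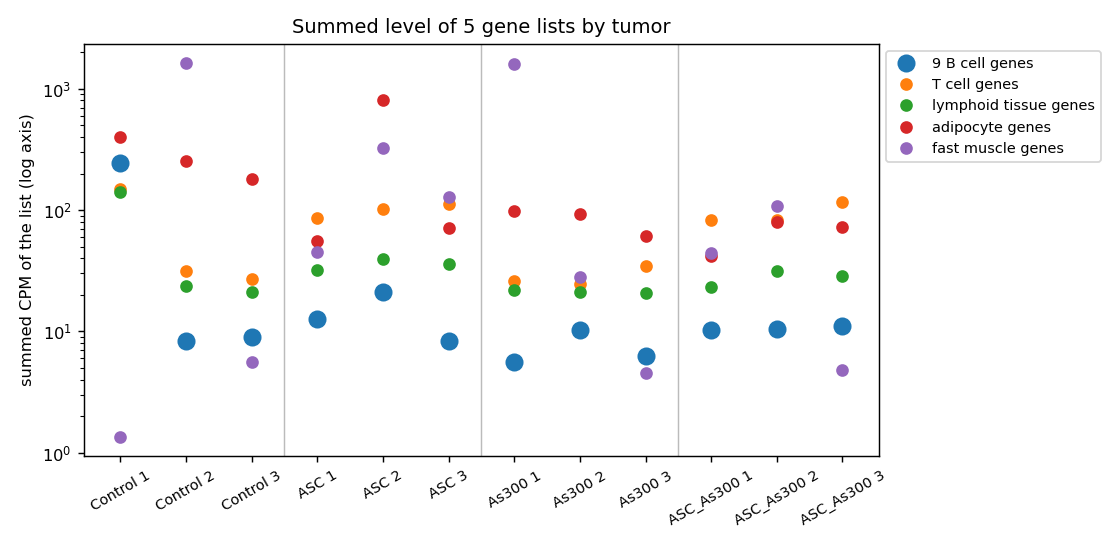
Summed CPM of 5 gene lists (y axis, logarithmic) in each of the 12 tumors (x axis, vertical lines between groups). The 9 B cell genes (large blue dots) reach 246 CPM in Control replicate 1 and 5.60 to 21.2 CPM elsewhere, while the T cell genes are at 82.3 to 117 CPM in the tumors with ASC-GFP cells.

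Likeness was measured as the Pearson correlation of each gene with the mean standardized log2 CPM of the 9 genes. Over the 12 tumors the genes most like them included H2-Ob (r = 0.96), Spib (0.95), Ighd (0.95), Siglecg (0.94), Dgka (0.94), Cxcr5 (0.93), Bcl11b (0.93), Pla2g2d (0.92) and Iglc3 (0.92). H2-Ob encodes a chain of the class II modulator H2-O, and Siglecg an inhibitory sialic acid receptor. Over the 11 tumors without Control replicate 1 they were Mettl7a1 (r = 0.92), Fasn (0.89), Pparg (0.87), Atg3 (0.87), Ebf1 (0.86), Rtl1 (0.85), Cat (0.85), Gm28900 (0.85), Nlrc4 (0.84) and Man1c1 (0.84), and 0 genes were shared by both lists of 10. Fasn and Pparg are genes of fat synthesis and of fat cell differentiation, and Ebf1 is used by both B cells and adipocytes. ASC replicate 2, the highest of the 11 tumors for the summed B cell genes, also had the highest summed adipocyte genes, at 810 CPM against 42.2 to 251 CPM in the other 10. The part of adipose tissue in these levels was not tested.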

How the data were processed

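RNA from 12 tumors was sequenced by the authors as paired-end reads of a stranded poly(A) library, trimmed with cutadapt 1.1.0, aligned with HISAT2 2.0 and quantified with StringTie 1.3.4, per the labels. The deposited file holds gene counts, not normalized, for 55401 Ensembl genes, of which 55141 matched a symbol in the reference annotation. Genome build, annotation release and the use of strand in counting were not given in the sources used here. Gene positions and exon lengths are from GENCODE M21 (GRCm38). Low counts piled up at 4 (1137 to 1298 genes per tumor, against 380 to 414 at 5), so 1 count may not be 1 read pair.

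Counts were filtered by edgeR (4.0.16, R 4.3.3) with filterByExpr, which kept 20818 genes and all 9 genes described, scaled by TMM and tested by quasi-likelihood with a mean per group over all tumors. All 9 genes also passed the minimum in at least 3 tumors other than Control replicate 1. Differences needed an adjusted p below 0.05 and 1.5-fold, the thresholds of the study. Log2 CPM used a prior count of 2. Alternatives were DESeq2 1.42.0, other filters and scalings, counts divided by 4, a replicate block and leaving out each tumor. The fit was tested on simulated data. Named genes were all 9, the 3 with the smallest p per list in As300 and in ASC_As300 against Control, and the 10 most like the 9 with and without Control replicate 1. Other genes named for their level in Control replicate 1 were chosen after their values were seen. The 9 genes and all lists were chosen with earlier results of these data known. No protein sequences were used. Some genes that this rule names are not reported here.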

Additional observations from a re-analysis of the deposited data

How the results depend on the processing

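Leaving out each tumor in turn moved the median log2 fold change of the 9 genes between -3.55 and 0.76 in ASC, between -4.63 and -0.12 in As300 and between -3.91 and 0.45 in ASC_As300 against Control, and between -0.54 and 3.84 for the interaction, with 0.76, -0.12, 0.45 and -0.54 reached without Control replicate 1. It ran from -1.21 to 0.18 for ASC_As300 against ASC, the 0.18 without ASC replicate 2, and from 0.14 to 0.90 for ASC_As300 against As300. The number of the 9 genes called by edgeR stayed 0 in every such fit except As300 against Control, where it ran from 0 to 2, the 2 being Ms4a1 and Pax5 without ASC replicate 1 or ASC replicate 3, tumors that enter that comparison only through the shared spread. With counts divided by 4, 2 of the 7 genes that passed the filter were called in As300 (Ms4a1 and Pax5). For these fits, with counts divided by 4 or without 1 ASC tumor, the share of all genes called is not given here. The rule that chose the genes also used this comparison, so nothing is read from these counts. DESeq2 called 1 gene, Blk, in As300 and in ASC_As300. The cause of these changes was not tested. Over all genes, DESeq2 called 450, 816 and 390 in ASC, As300 and ASC_As300 against Control, 11 and 399 in ASC_As300 against ASC and against As300 and 174 for the interaction, where edgeR called 150, 220, 168, 0, 178 and 0, and edgeR without Control replicate 1 called 218, 0, 203, 0, 277 and 0. The 10 genes most like the 9 shared 0 genes with those found without Control replicate 1 and 0 with those found by Spearman correlation.

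Same-numbered tumors were not clearly more alike than others. Over all genes tested, deviations from the group means correlated between -0.12 and 0.17 in 18 same-numbered pairs, with a median of 0.03 and 2 over 0.1. Differently numbered pairs ran from -0.22 to 0.25, with a median of -0.01. Whether same-numbered tumors shared a batch was not tested. With the replicate block, 0 genes were called in all 6 comparisons, and the medians were -2.14, -3.04 and -2.55 against Control, -0.67 and 0.78 for ASC_As300 against ASC and As300, and 2.70 for the interaction. Outside Control replicate 1, Ms4a1, Blk and Fcer2a had under 20 counts in most tumors, which limits what could be seen for them.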

Other observations

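Of the 69 genes at least 4-fold higher in Control replicate 1 than in every other tumor, 33 were in no list. The genes named here were chosen after their values were seen. They included 3 genes of lymphatic endothelium, Mmrn1 at 4.01 CPM against at most 0.607 CPM elsewhere, Prox1 at 1.98 CPM against at most 0.409 CPM, and Stab2, a scavenger receptor of sinus endothelium, at 7.89 CPM against at most 0.536 CPM. H2-Oa and H2-Eb2, class II genes of B cells and dendritic cells, were at 9.67 CPM against at most 1.77 CPM and at 5.89 CPM against at most 1.1 CPM. Ccr6, a chemokine receptor of B cells and of some T cells, was at 1.90 CPM against at most 0.402 CPM. No other tumor had more than 3 genes set apart by the same margin. These values come from 1 tumor and have no replicate check.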
